A study of Rattus norvegicus with 8 samples.

Results

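Ion channel genes were followed across 8 two-colour arrays of rat neurons. The set holds the genes with a probe whose accession maps, through the RefSeq table, to a symbol beginning with Kcn, Cacna1, Cacna2d or Cacnb, or with Scn or Hcn and a digit, without LOC names. It came to 124 genes with 159 probes, out of 26903 genes and unnamed accessions with 30367 probes, and 113 of the genes (144 probes) were bright enough to be tested. The cells were primary cortical and hippocampal neurons, taken from Sprague Dawley rats at embryonic day 18 and kept for 7 days in culture before treatment. The study asked which genes respond to ADDL, soluble oligomers of amyloid-beta, in the presence or absence of CAT-SKL, a catalase protein carrying a peroxisomal targeting signal. Neurons received CAT-SKL alone, ADDL alone, CAT-SKL and then ADDL (CAT-SKL+ADDL), or ADDL and then CAT-SKL (ADDL+CAT-SKL), with 2 arrays per group. The dose was 1 µM and the exposure 24 h for each agent. The order of agents in the combined groups was read from their names. Every array set treated RNA in Cy5 against RNA of vehicle-treated neurons in Cy3, so a log2 ratio above 0 means more signal in the treated cells.

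Voltage-gated sodium, calcium and potassium channels open with depolarisation and shape the action potential. Sodium channels start it, potassium channels end it and set the firing rate, and calcium channels couple it to transmitter release and gene expression. Inward rectifier and tandem-pore potassium channels set the resting potential, and HCN channels carry a pacemaker current that opens with hyperpolarisation. Most pore subunits work with auxiliary subunits that alter their gating or their transport to the membrane.

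No dye swap was made and vehicle was the only control, so a dye effect of a probe cannot be told apart from an effect shared by all treatments, while it cancels between treatments. The arrays lay on 1 slide, with single treatments in one row and sequential treatments in the other, so neither position nor total duration can be told apart from giving the agents in sequence. Cy5 signals well above background made up 73.3% to 81.0% of probes and Cy3 signals 71.5% to 77.4%, and the number of arrays limits the precision. Between the arrays of CAT-SKL+ADDL the difference was close to spot noise (SD of the difference 0.0833, against 0.0824 from spot noise). They were counted as 1 sample, which leaves 7 samples in the fit and takes the spread of that lone sample to be that of the other groups. Of 13 neuron markers, 11 had a probe, and all of these were above background in vehicle on all 8 arrays. Markers of other cells were detected there too. Of those with a probe, 11 of 11 astrocyte and 10 of 10 progenitor and proliferation markers were above background on all 8. So were 10 of 11 oligodendrocyte lineage, 9 of 11 microglia and 6 of 12 vascular and fibroblast markers.

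Most of the channel genes were detected in the vehicle-treated neurons. In the Cy3 channel, 102 of the 124 genes (82.3%) were well above background on all 8 arrays, against 68.2% of all genes and accessions. The wider set includes unnamed accessions, unlike the channel genes, and a share over named genes alone is not given here. Detection was complete for the Kv7 genes (3 of 3), the sodium channel beta subunits (4 of 4), the calcium channel beta subunits (4 of 4) and the HCN genes (4 of 4). It was lowest among the inward rectifiers, of which 8 of 15 were above background on every array and 5 on none. The latter were Kcnj2, Kcnj8, Kcnj15, Kcnj16 and Kcnj10, the inward rectifier typical of astrocytes, which stayed below background on all arrays in both channels. Also below background on every vehicle channel were Scn10a, the sodium channel of sensory neurons, Kcnn4, a calcium-activated channel of blood and epithelial cells, and Cacna1f, the calcium channel of photoreceptors. Kcne3, Kcng4, Kcnh5 and Kcnk15 were in the same state, and the remaining 10 genes were above background on some arrays. Kcnq5 and Cacna1d, a Kv7 gene and an L-type calcium channel of neurons, had no probe that the rule takes and are not described.

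**Figure D1:**
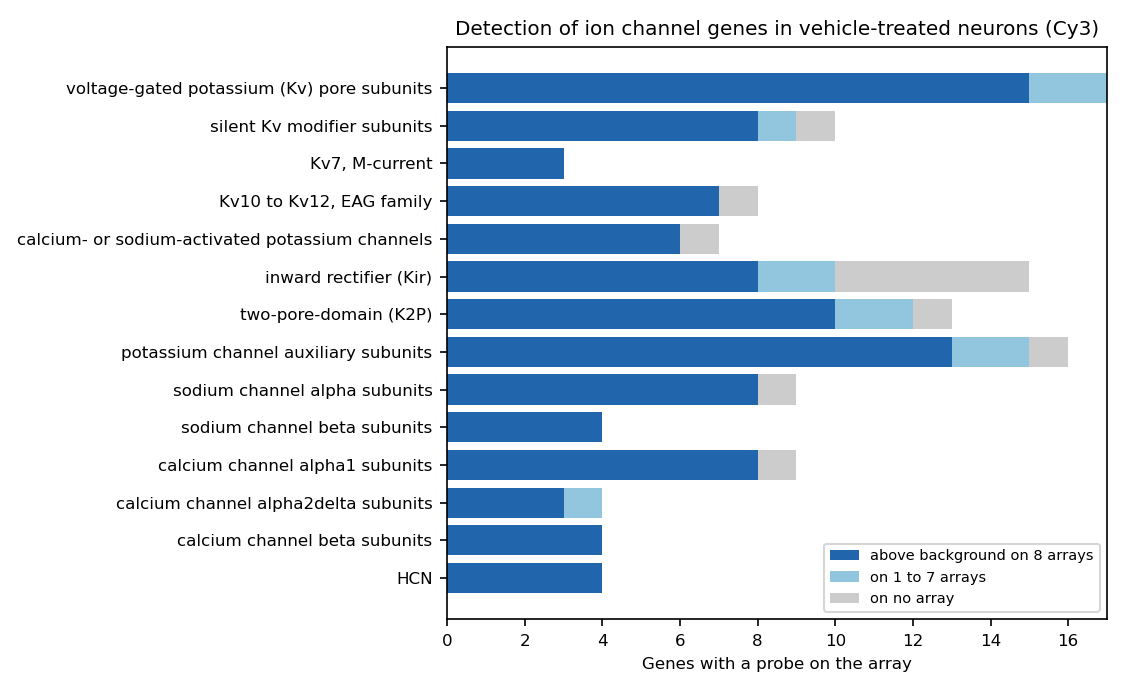
Number of channel genes (x axis) in each class (y axis), split by the number of arrays on which the gene's best probe was well above background in vehicle (Cy3). The inward rectifiers have 5 of 15 genes below background on every array, and all 4 HCN genes are above it on all 8.

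Changes in the channel genes were small. All values that follow are log2 ratios or log2 changes of treated over vehicle unless another scale is named, and errors are the standard errors (SE) of limma. No channel gene tested moved by more than 1.5-fold in any treatment group. Of all 22459 genes and accessions tested, 17 to 186 did so in the 4 groups. That share is so small that 0 of 113 channel genes lies near it. After CAT-SKL the log2 changes of the 113 genes lay between -0.44 and 0.39, after ADDL between -0.37 and 0.30, after CAT-SKL+ADDL between -0.46 and 0.42, and after ADDL+CAT-SKL between -0.31 and 0.53. The median channel gene was at -0.020, -0.015, -0.052 and -0.018 in these groups, with all genes tested between -0.0040 and -0.00016. The interquartile range of the channel genes was 0.169, 0.147, 0.156 and 0.131, beside 0.147, 0.140, 0.152 and 0.136 for all genes, so the channel genes spread about as widely as the rest.

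Few channel genes passed the test in a single treatment. The test was limma over all 22459 genes and accessions with Benjamini-Hochberg adjustment and a threshold of 0.05. After CAT-SKL, 4 channel genes (3.54%) were lower and 0 were higher, beside 2.62% of all genes called (1.78% lower and 0.837% higher). Median centring in place of loess gave 2 higher (Kcne5 and Kcnmb4) and 3 lower (Cacna1a, Hcn4 and Scn8a), beside 8.1% of all genes. At an unadjusted p under 0.05 there were 5 higher and 19 lower, beside 21.2% of all genes (9.6% higher and 11.6% lower). After ADDL the limma test called 0 channel genes (0% of all genes), with 5 higher and 13 lower at an unadjusted p under 0.05, where 19% of all genes lay (9.83% higher and 9.18% lower). After CAT-SKL+ADDL it also called 0 (0% of all genes), with 2 higher and 13 lower at that unadjusted level, beside 11.3% of all genes (5.32% higher and 6% lower). After ADDL+CAT-SKL it called 0, beside 0.454% of all genes, with 9 higher and 8 lower at the unadjusted level, beside 17.6% (8.07% higher and 9.53% lower). With the CAT-SKL+ADDL arrays as separate samples the counts were 11, 7, 15 and 7 in the same order of groups, beside 8.1%, 4.34%, 10.3% and 3.94% of all genes.

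The mean of the 4 treatments against vehicle uses all 7 samples and had the smallest standard errors. It called 23 of 113 channel genes (20.4%), beside 19.6% of all genes, a share near the background. Of these, 18 were lower, beside 10.5% of all genes, and 5 were higher, beside 9.12%. At an unadjusted p under 0.05 there were 9 higher and 28 lower, beside 33.7% of all genes (15.6% higher and 18% lower). Calls in this mean include any constant dye effect of a probe. The 23, picked on these same values, kept their sign under every alternative of the gene-level fit and with every array left out. Several of these alternatives leave the log2 changes as they were, so the sign could not turn there. The calls did not all last. The log ratios deposited by the authors gave 1 call (Cacna1s, the skeletal muscle L-type channel, named after its value was seen) and none of the 23. Leaving out ADDL+CAT-SKL 1 gave 13 calls and leaving out ADDL 2 gave 15. Median centring of each array in place of loess gave 7 higher and 10 lower.

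On all 8 arrays 11 channel genes (9.73%) lay below 0, beside 7.99% of all genes. They were Cacnb1, Cacnb3, Cacnb4, Kcna1, Kcnb2, Kcnh1, Kcnj4, Kcnj9, Kcnk10, Kcnt2 and Scn8a. Only Kcnmb4 lay above 0 on all 8 (0.885%), beside 7.47% of all genes. With median centring these counts were 6 and 4. Kcnj9, Kcnk10, Kcnt2 and Kcnh4 fall outside the rule for named genes and are named because they were counted here or below.

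**Figure D2:**
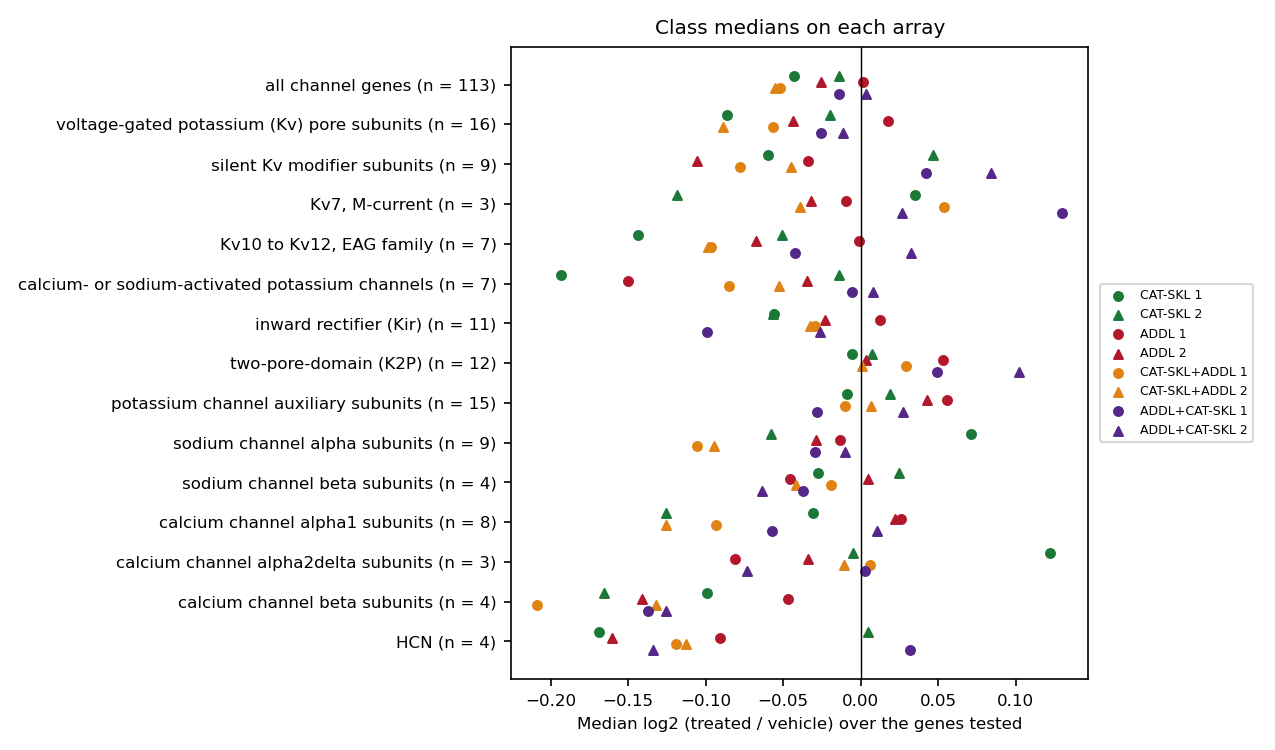
Median log2 ratio of treated over vehicle (x axis) of the genes tested in each channel class (y axis, with the number of genes), one point per array, colours for treatments and shapes for replicates. The calcium channel beta subunits lie below 0 on all 8 arrays, while the medians of most classes fall on both sides of 0.

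By class, the calcium channel beta subunits had the lowest median in the mean of the treatments, -0.13 over 4 genes, and all 4 lay below 0. The HCN genes (median -0.068, 4 of 4 below 0), the activated potassium channels (-0.077, 4 of 7) and the EAG family (-0.072, 5 of 7) followed. The tandem-pore channels (0.037, 4 of 12 below 0) and the potassium channel auxiliary subunits (0.013, 6 of 15) lay slightly above 0. Across the alternative settings and arrays left out, the beta subunit median stayed between -0.16 and -0.083, and the tandem-pore median between 0.014 and 0.068. The auxiliary median turned to -0.013 with median centring, and the deposited log ratios put the EAG family lowest, at -0.17. Calls in the mean were spread over the classes, of which the following are not a full count. There were 3 lower among 16 Kv pore subunits, 2 of 7 in the EAG family, 2 of 7 activated channels, 2 of 11 inward rectifiers and 2 of 9 sodium channel alpha subunits. Lower calls also came from 1 of 8 calcium channel alpha1 subunits, 2 of 4 calcium channel beta subunits and 1 of 4 HCN genes. The tandem-pore class had 2 higher and 2 lower of 12, and the auxiliary class was the only one of several genes with higher and without lower calls, 3 of 15. These 3 include Kcnab1, whose other tested probe went the opposite way. No gene of the silent Kv subunits (9), Kv7 (3) or alpha2delta (3) was called.

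Markers of other cells moved on the same arrays. The summed signal of 11 astrocyte markers, as a log2 ratio, was 0.28 to 1.19 after CAT-SKL, 0.56 to 1.09 after ADDL, 0.95 to 1.02 after CAT-SKL+ADDL and -0.033 to 0.33 after ADDL+CAT-SKL. The oligodendrocyte lineage markers ran from 0.11 to 0.83, 0.51 to 0.52, 0.73 to 0.76 and -0.29 to -0.033 in the same order, and the progenitor and proliferation markers from 0.14 to 0.61, 0.35 to 0.53, 0.58 to 0.59 and -0.022 to 0.27. The microglia markers were at -0.00071 to 0.30, 0.26 to 0.60, 0.17 to 0.19 and -0.21 to 0.10, and the vascular and fibroblast markers at -0.18 to -0.15, -0.27 to -0.030, -0.19 to -0.18 and -0.12 to 0.20, with Itgam and Tek below background on every vehicle channel. A sum follows its brightest genes. The median astrocyte marker was at 0.20 to 0.82, 0.46 to 0.81, 0.52 to 0.58 and -0.022 to 0.29 in the same order, and the median oligodendrocyte lineage marker at 0.064 to 0.65, 0.17 to 0.26, 0.60 to 0.63 and -0.093 to 0.099. The summed signal of the neuron markers lay between -0.048 and 0.068 in all groups. Their median was at -0.061 to -0.00064 after CAT-SKL, -0.039 to -0.021 after ADDL, -0.093 to -0.055 after CAT-SKL+ADDL and 0.017 to 0.024 after ADDL+CAT-SKL, and single neuron markers lay between -0.29 and 0.057 in the mean of the treatments. In the mean of the treatments 10 of 11 astrocyte markers, 5 of 11 oligodendrocyte lineage markers, 7 of 10 progenitor markers and 2 of 10 microglia markers were called higher, and 1 of 11 neuron markers (Dcx) and 1 of 11 vascular and fibroblast markers (Dcn) lower. The channel genes that were lowest after CAT-SKL and CAT-SKL+ADDL came from arrays on which the astrocyte and oligodendrocyte lineage markers lay above 0. These markers also lay above 0 on the ADDL arrays. There, Cacna1a (0.021 and -0.19) and Hcn4 (-0.055 and -0.19) were nearer to 0, while Kcnk12 was low (-0.25 and -0.48). The part of such cells in the channel values was not tested. In such bulk samples, fewer cells of a type and less RNA per cell cannot be told apart.

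Promoters are shown for 4 genes whose values carry the description below: Scn8a, the called gene with the lowest mean ratio, Cacna1a, the lowest after CAT-SKL, and Kcnma1 and Kcnmb4, pore and auxiliary subunit of one channel whose ratios went in opposite directions. Each line gives the 250 bases upstream of the start of the gene in RefSeq's annotation of GRCr8, 5′ to 3′ on the strand of the gene, with capitals for the GC box GGGCGG on either strand (CCGCCC when read on the gene's strand).
Scn8a, chr7:133860977-133861226, plus strand: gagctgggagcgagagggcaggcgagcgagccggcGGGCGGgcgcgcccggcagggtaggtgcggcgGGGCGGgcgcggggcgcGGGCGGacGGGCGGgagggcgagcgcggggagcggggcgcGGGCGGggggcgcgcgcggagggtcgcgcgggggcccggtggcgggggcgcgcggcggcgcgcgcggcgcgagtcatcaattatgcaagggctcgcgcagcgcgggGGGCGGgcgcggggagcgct
Cacna1a, chr19:40650469-40650718, minus strand: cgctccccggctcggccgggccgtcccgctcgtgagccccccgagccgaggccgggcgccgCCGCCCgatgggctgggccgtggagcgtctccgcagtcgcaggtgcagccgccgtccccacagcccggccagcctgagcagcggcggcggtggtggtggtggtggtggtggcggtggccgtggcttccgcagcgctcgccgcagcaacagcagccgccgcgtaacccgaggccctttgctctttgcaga
Kcnma1, chr15:351675-351924, plus strand: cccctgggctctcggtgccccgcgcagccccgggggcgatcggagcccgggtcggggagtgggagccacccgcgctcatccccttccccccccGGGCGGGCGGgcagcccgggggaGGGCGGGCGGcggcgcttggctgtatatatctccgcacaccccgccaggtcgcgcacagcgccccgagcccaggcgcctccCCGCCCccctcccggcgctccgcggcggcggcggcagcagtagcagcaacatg
Kcnmb4, chr7:54005102-54005351, minus strand: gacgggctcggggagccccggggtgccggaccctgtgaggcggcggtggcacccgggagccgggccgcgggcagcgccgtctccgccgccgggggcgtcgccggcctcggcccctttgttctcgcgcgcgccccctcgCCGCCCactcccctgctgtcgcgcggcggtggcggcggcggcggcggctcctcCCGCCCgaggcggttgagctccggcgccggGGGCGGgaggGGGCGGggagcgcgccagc
These windows hold 6, 1, 5 and 4 GC boxes, with overlapping matches in Kcnma1, and have GC contents of 86.0%, 76.8%, 79.6% and 84.4%, beside a median of 52.0% over all 27457 promoters. A GC box lies in 32.4% of all promoters. None of the 4 windows holds the cAMP response element TGACGTCA (1.70% of all promoters) or TATAAA (13.1%), searched on both strands. Only 82 of the 124 channel genes (66.1%) have a promoter in the table, so a comparison of motifs between called and other channel genes is void.

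Among the sodium channels, Scn8a and Scn3a fell in the mean of the treatments, and the other brain alpha subunits did not pass. Scn8a encodes the pore of the channel that dominates at the axon initial segment and nodes of mature neurons. Its log2 ratios were -0.37 and -0.33 after CAT-SKL, -0.0048 and -0.43 after ADDL, -0.35 and -0.39 after CAT-SKL+ADDL, and -0.29 and -0.10 after ADDL+CAT-SKL. It lay below 0 on all 8 arrays, most narrowly on ADDL 1, and its mean fell by 0.28 ± 0.054 (SE, adjusted p = 0.0108). Scn3a, the alpha subunit of embryonic brain, had -0.17 and -0.20 after CAT-SKL, -0.013 and -0.16 after ADDL, -0.22 and -0.16 after CAT-SKL+ADDL, and -0.0049 and 0.0031 after ADDL+CAT-SKL. Its mean was -0.12 ± 0.032 (SE, adjusted p = 0.0381), which passed, with the ADDL+CAT-SKL arrays close to 0. Scn1a, prominent in inhibitory neurons, and Scn2a, the early axonal subunit of excitatory neurons, had means of -0.065 ± 0.030 and -0.037 ± 0.042.

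Among the sodium channel beta subunits, which modulate gating, Scn2b was at -0.0068 ± 0.031 and Scn3b at -0.058 ± 0.039 in the mean, neither passing, although both ADDL+CAT-SKL arrays of Scn3b were low at -0.25 and -0.35.

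The calcium channel gene with the lowest ratio was Cacna1a, the P/Q-type pore of presynaptic terminals. Its log2 ratios were -0.52 and -0.36 after CAT-SKL, 0.021 and -0.19 after ADDL, -0.36 and -0.43 after CAT-SKL+ADDL, and -0.095 and 0.011 after ADDL+CAT-SKL. The CAT-SKL and CAT-SKL+ADDL arrays were all lower than the ADDL and ADDL+CAT-SKL arrays, which lay near 0 on 3 of 4. Cacna1a fell after CAT-SKL by 0.44 ± 0.071 (SE, adjusted p = 0.0359) and in the mean by 0.24 ± 0.040 (SE, adjusted p = 0.00654). Its other tested probe did not follow, with -0.0028 after CAT-SKL and 0.053 in the mean. The N-type pore Cacna1b (-0.071 ± 0.036), the L-type pore Cacna1c (-0.071 ± 0.036) and the R-type pore Cacna1e (0.030 ± 0.037) did not pass in the mean.

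T-type channels open near the resting potential. Cacna1h, one of their 3 pores, had ratios of -0.014 and -0.16 after CAT-SKL, -0.23 and 0.043 after ADDL, -0.29 and -0.18 after CAT-SKL+ADDL, and 0.30 and 0.31 after ADDL+CAT-SKL. Only the ADDL+CAT-SKL arrays were clearly above 0, at 0.31 ± 0.075 (SE, adjusted p = 0.0980), and the change did not pass. The other T-type pores Cacna1g and Cacna1i had means of 0.0061 ± 0.034 and -0.035 ± 0.032. The alpha2delta subunits, extracellular partners that bring calcium channels to the terminal, stayed close to 0, with Cacna2d1 at -0.040 ± 0.032, Cacna2d2 at 0.0041 ± 0.029 and Cacna2d3 at 0.021 ± 0.043.

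The cytoplasmic beta subunits carry the alpha1 pore to the membrane. Cacnb3 had ratios of -0.021 and -0.23 after CAT-SKL, -0.070 and -0.088 after ADDL, -0.25 and -0.27 after CAT-SKL+ADDL, and -0.19 and -0.42 after ADDL+CAT-SKL. All 8 were below 0, with CAT-SKL 1 the nearest to it and ADDL+CAT-SKL 2 the lowest, and the mean fell by 0.19 ± 0.042 (SE, adjusted p = 0.0164). Cacnb4 had -0.17 and -0.13 after CAT-SKL, -0.014 and -0.24 after ADDL, -0.17 and -0.20 after CAT-SKL+ADDL, and -0.10 and -0.17 after ADDL+CAT-SKL. It too was below 0 on every array and fell in the mean by 0.15 ± 0.037 (SE, adjusted p = 0.0265), but its other tested probe was at 0.042. Cacnb1 (-0.11 ± 0.038, adjusted p = 0.0782) was below 0 on all 8 arrays without passing, and Cacnb2 (-0.084 ± 0.036, adjusted p = 0.146) did not pass.

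Hcn4, the slow pacemaker channel of thalamus and heart, gave -0.58 and -0.26 after CAT-SKL, -0.055 and -0.19 after ADDL, -0.45 and -0.47 after CAT-SKL+ADDL, and 0.019 and -0.089 after ADDL+CAT-SKL. Both CAT-SKL and both CAT-SKL+ADDL arrays were lower than all ADDL and ADDL+CAT-SKL arrays. The fall after CAT-SKL was -0.42 ± 0.082 (SE, adjusted p = 0.0456), and that in the mean -0.26 ± 0.046 (SE, adjusted p = 0.00798). After CAT-SKL+ADDL it was at -0.46 ± 0.12 (SE, adjusted p = 0.222), the lowest channel gene of that group, without passing. Hcn2, a faster HCN gene of the brain, had a mean of -0.063 ± 0.051 and did not pass.

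**Figure D3:**
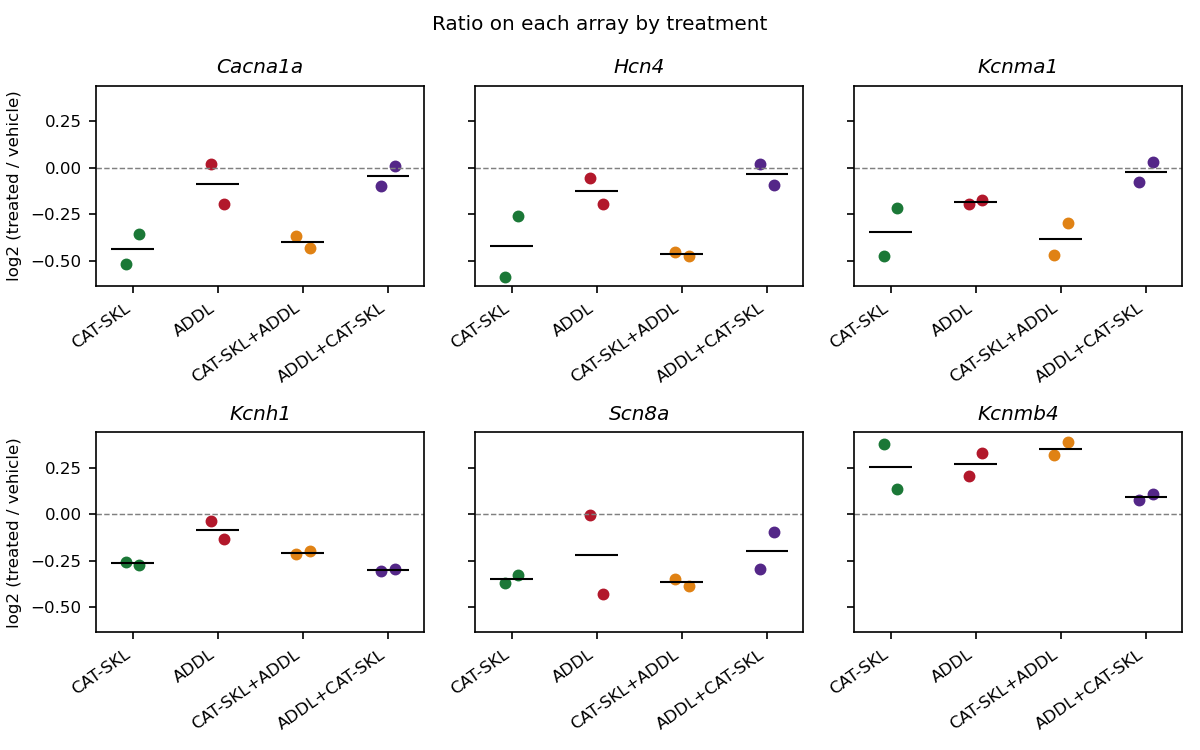
Log2 ratio of treated over vehicle (y axis) on each array for 6 genes, by treatment (x axis), with black bars at the mean of the 2 arrays. Cacna1a and Hcn4 are lowest after CAT-SKL and CAT-SKL+ADDL, Kcnh1 is near -0.30 on both ADDL+CAT-SKL arrays, and Kcnmb4 is above 0 on all 8.

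Kcnb2, a pore gene of the Kv2 delayed rectifier, fell in the mean. It had ratios of -0.36 and -0.17 after CAT-SKL, -0.17 and -0.24 after ADDL, -0.40 and -0.37 after CAT-SKL+ADDL, and -0.11 and -0.060 after ADDL+CAT-SKL, and its mean was -0.24 ± 0.034 (SE, adjusted p = 0.00435). All 8 arrays were below 0, with the ADDL+CAT-SKL arrays nearest to it. Among the axonal Kv1 genes, Kcna2 gave -0.34 and -0.20 after CAT-SKL, 0.047 and 0.034 after ADDL, -0.25 and -0.18 after CAT-SKL+ADDL, and -0.10 and 0.024 after ADDL+CAT-SKL. Its low values came from CAT-SKL and CAT-SKL+ADDL, while both ADDL arrays were slightly above 0, and the mean fell by 0.12 ± 0.034 (SE, adjusted p = 0.0402). Kcna1 was below 0 on all 8 arrays, with a mean of -0.14 ± 0.042 (SE, adjusted p = 0.0575) that did not pass.

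Further Kv pore genes on the list of main neuronal channels did not pass in the mean. They were the A-type genes Kcna4 (-0.016 ± 0.031), Kcnd2 (-0.067 ± 0.059) and Kcnd3 (-0.048 ± 0.032), and the fast-spiking genes Kcnc1 (0.017 ± 0.033) and Kcnc2 (-0.069 ± 0.038). The M-current gene Kcnq3 lay at 0.017 ± 0.047, and Kcnq1 had the smallest p of its class at -0.086 ± 0.038 (SE, adjusted p = 0.149). Silent subunits form no channel alone and modify Kv2. Among them, Kcns3 had -0.21 and 0.027 after CAT-SKL, -0.31 and -0.31 after ADDL, -0.041 and -0.045 after CAT-SKL+ADDL, and 0.14 and 0.14 after ADDL+CAT-SKL. It was lowest on both ADDL arrays, -0.31 ± 0.065 (SE, adjusted p = 0.0767), and above 0 on both ADDL+CAT-SKL arrays. Kcnv1, another silent subunit, had 0.031 and 0.35 after CAT-SKL, -0.089 and -0.19 after ADDL, 0.0074 and 0.11 after CAT-SKL+ADDL, and 0.31 and 0.33 after ADDL+CAT-SKL, and after ADDL+CAT-SKL stood at 0.32 ± 0.077 (SE, adjusted p = 0.0974). Neither passed, nor did Kcng1, whose mean was -0.14 ± 0.045 (SE, adjusted p = 0.0707) and whose other tested probe was at 0.085.

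In the EAG family, Kcnh1, its founding member in mammals, gave -0.25 and -0.27 after CAT-SKL, -0.035 and -0.13 after ADDL, -0.21 and -0.19 after CAT-SKL+ADDL, and -0.30 and -0.29 after ADDL+CAT-SKL. All arrays were below 0, and it was the channel gene with the smallest p in the mean, -0.21 ± 0.030 (SE, adjusted p = 0.00396). It fell after CAT-SKL by 0.26 ± 0.053 (SE, adjusted p = 0.0480), and after ADDL+CAT-SKL stood at -0.30 ± 0.053 (SE, adjusted p = 0.0627), just short of the threshold. Unlike Cacna1a and Hcn4, it was as low on the ADDL+CAT-SKL arrays as on the CAT-SKL arrays. Kcnh4, of the same family, fell in the mean by 0.13 ± 0.036 (SE, adjusted p = 0.0403), and the ERG gene Kcnh7 was at -0.087 ± 0.033 (SE, adjusted p = 0.107) without passing.

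The large-conductance (BK) channel responds to calcium and voltage together. Its pore gene Kcnma1 had ratios of -0.47 and -0.22 after CAT-SKL, -0.19 and -0.17 after ADDL, -0.47 and -0.29 after CAT-SKL+ADDL, and -0.076 and 0.034 after ADDL+CAT-SKL. All but ADDL+CAT-SKL 2 were below 0. Kcnma1 fell after CAT-SKL by 0.34 ± 0.070 (SE, adjusted p = 0.0486) and in the mean by 0.23 ± 0.039 (SE, adjusted p = 0.00689), and its 2 other probes gave means of -0.21 and -0.22. Kcnmb4, the beta subunit that is most abundant in neurons and slows the channel, had 0.38 and 0.14 after CAT-SKL, 0.21 and 0.33 after ADDL, 0.32 and 0.39 after CAT-SKL+ADDL, and 0.078 and 0.11 after ADDL+CAT-SKL. It was the only channel gene above 0 on all 8 arrays and rose in the mean by 0.24 ± 0.039 (SE, adjusted p = 0.00585). The pore gene and its beta subunit were both closest to 0 on the ADDL+CAT-SKL arrays. Of the sodium-activated channels, Kcnt2 fell in the mean by 0.15 ± 0.034 (SE, adjusted p = 0.0192) and Kcnt1 was at 0.029 ± 0.030, and the small-conductance gene Kcnn2 was at 0.050 ± 0.041.

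Among the inward rectifiers, Kcnj4, a strong rectifier of forebrain neurons, gave -0.21 and -0.026 after CAT-SKL, -0.32 and -0.23 after ADDL, -0.33 and -0.21 after CAT-SKL+ADDL, and -0.20 and -0.13 after ADDL+CAT-SKL. All 8 arrays were below 0, and the mean fell by 0.21 ± 0.035 (SE, adjusted p = 0.00691). Genes for the G protein-gated channels, which open after activation of inhibitory receptors, were Kcnj9 at -0.13 ± 0.031 (SE, adjusted p = 0.0256), Kcnj3 at -0.11 ± 0.037 (SE, adjusted p = 0.0837) and Kcnj6 at 0.0077 ± 0.032 (SE, adjusted p = 0.903). Only Kcnj9 passed, and its other tested probe was at -0.013.

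Tandem-pore channels carry the background leak of potassium. Kcnk12, of the halothane-inhibited subfamily, had -0.65 and -0.15 after CAT-SKL, -0.25 and -0.48 after ADDL, -0.36 and -0.42 after CAT-SKL+ADDL, and 0.062 and 0.055 after ADDL+CAT-SKL. Both ADDL+CAT-SKL arrays were slightly above 0 and the other 6 below it, and the mean fell by 0.28 ± 0.061 (SE, adjusted p = 0.0179). Its relative Kcnk13 rose by 0.17 ± 0.040 (SE, adjusted p = 0.0236), although its other tested probe was at -0.041. Kcnk2, a channel sensitive to stretch and lipids, had 0.18 and 0.13 after CAT-SKL, 0.28 and 0.26 after ADDL, 0.28 and 0.34 after CAT-SKL+ADDL, and 0.14 and -0.030 after ADDL+CAT-SKL. It was above 0 on 7 of 8 arrays and rose in the mean by 0.20 ± 0.033 (SE, adjusted p = 0.00690), but its other tested probes did not follow, as given below. Kcnk10, of the same subfamily, fell by 0.20 ± 0.046 (SE, adjusted p = 0.0202). Kcnk1 lay at 0.012 ± 0.041.

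The auxiliary subunits held 3 of the 5 genes that rose in the mean, Kcnmb4 among them. Kcne5, a small membrane protein that modulates potassium channel gating, had 0.57 and 0.21 after CAT-SKL, 0.0091 and 0.59 after ADDL, 0.35 and 0.49 after CAT-SKL+ADDL, and -0.028 and -0.10 after ADDL+CAT-SKL. It was above 0 on the CAT-SKL, ADDL and CAT-SKL+ADDL arrays and slightly below 0 on both ADDL+CAT-SKL arrays, and ADDL 1 was close to 0. Its mean rose by 0.26 ± 0.074 (SE, adjusted p = 0.0407). Kcnab1, a cytoplasmic partner that speeds inactivation of axonal Kv1 channels, gave -0.078 and 0.33 after CAT-SKL, -0.15 and 0.095 after ADDL, 0.13 and 0.23 after CAT-SKL+ADDL, and 0.43 and 0.63 after ADDL+CAT-SKL. Here the ADDL+CAT-SKL arrays were the highest, at 0.53 ± 0.10 (SE, adjusted p = 0.0744), which did not pass. The mean rose by 0.20 ± 0.058 (SE, adjusted p = 0.0461), although the other tested probe of Kcnab1 went the opposite way. Its relative Kcnab2 (-0.026 ± 0.038) and the Kv4 partners Kcnip1 (0.063 ± 0.048) and Kcnip4 (0.047 ± 0.035) did not pass.

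**Figure D4:**
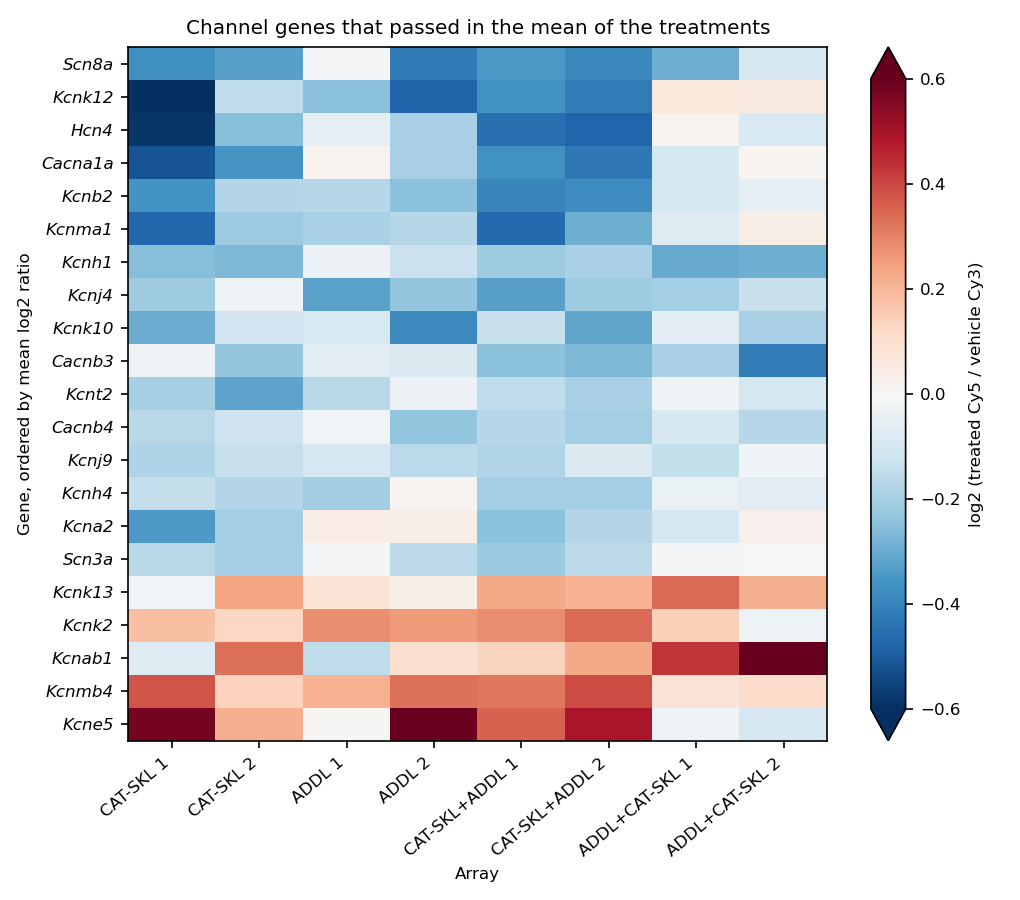
Log2 ratio of treated over vehicle (colour, blue below 0 and red above) of channel genes that passed in the mean of the 4 treatments (y axis, ordered by mean) on each array (x axis). Colours are strongest for CAT-SKL 1 and the CAT-SKL+ADDL arrays, and most genes are pale on the ADDL+CAT-SKL arrays, apart from Kcnab1, Kcnk13, Cacnb3, Kcnh1 and, on 1 array, Scn8a.

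The 4 calls after CAT-SKL were sensitive to single arrays and settings. They were Cacna1a, Hcn4, Kcnma1 and Kcnh1, and all 4 are among the 18 lower in the mean, which includes the CAT-SKL arrays. None passed without CAT-SKL 1, without either ADDL array or without either ADDL+CAT-SKL array, and none with the deposited log ratios or a normexp offset of 16. Without CAT-SKL 2 there were 3 calls, Hcn4, Kcnma1 and Kcnk12. Leaving out an ADDL or ADDL+CAT-SKL array kept the CAT-SKL log2 changes as they were and altered only the estimate of spread that the groups share. Kcnk12 and Kcne5 also had large changes after CAT-SKL, -0.40 ± 0.11 (SE, adjusted p = 0.0859) and 0.39 ± 0.13 (SE, adjusted p = 0.139), and did not pass. After ADDL, Kcnk12 was at -0.37 ± 0.11 (SE, adjusted p = 0.135) and Kcne5 at 0.30 ± 0.13 (SE, adjusted p = 0.266). After CAT-SKL+ADDL, Cacna1a stood at -0.40 ± 0.10 (SE, adjusted p = 0.224), Kcnk12 at -0.39 ± 0.15 (SE, adjusted p = 0.388) and Kcne5 at 0.42 ± 0.19 (SE, adjusted p = 0.446). After ADDL+CAT-SKL, Cacnb3 was at -0.31 ± 0.074 (SE, adjusted p = 0.0992).

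Direct comparisons of treatments ask whether CAT-SKL before or after ADDL alters the response to ADDL. No channel gene passed in limma in any of them, as for all genes tested (0% called). For ADDL+CAT-SKL against ADDL, 12 channel genes were higher and 5 lower at an unadjusted p under 0.05, beside 8.39% of all genes (3.73% higher and 4.67% lower). For CAT-SKL+ADDL against ADDL there were 1 higher and 3 lower (3.9% of all genes, 1.44% higher and 2.46% lower). For CAT-SKL+ADDL against ADDL+CAT-SKL there were 3 higher and 10 lower (5.64%, 2.93% higher and 2.7% lower), and for CAT-SKL against ADDL 4 higher and 6 lower (8.7%, 3.45% higher and 5.25% lower). Examples chosen after their values were seen were Kcnab1, higher by 0.56 ± 0.15 (SE, adjusted p = 0.573) in ADDL+CAT-SKL than after ADDL, and in the same comparison Kcnv1, higher by 0.46 ± 0.11 (SE, adjusted p = 0.573), and Kcns3, higher by 0.45 ± 0.092 (SE, adjusted p = 0.573). Cacna1h was lower after CAT-SKL+ADDL than after ADDL+CAT-SKL, at -0.54 ± 0.13 (SE, adjusted p = 0.857). The paler values of the ADDL+CAT-SKL group for Cacna1a, Hcn4 or Kcnma1 are therefore not shown to differ from those after ADDL or CAT-SKL+ADDL, and ADDL+CAT-SKL against CAT-SKL was not tested.

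Several probes were available for some of the called genes, and they did not always move together. The probes of Kcnma1 (-0.23 for the one used, -0.21 and -0.22 for the others in the mean), Kcne5 (0.26 and 0.27) and Kcnk10 (-0.20 and -0.18) gave like values. For Cacna1a, Cacnb4, Kcnk13 and Kcnj9 the other probe was near 0, as given above. For Kcnk2 the other probes were at -0.11 and 0.021, and for Kcnab1 the other probe was at -0.13, opposite to the probe used. Positions of the probes within transcripts were not used here, and isoforms were not assigned. With the mean over probes in place of the brightest one, the mean of the treatments called 18 channel genes, 2 higher and 16 lower.

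**Figure D5:**
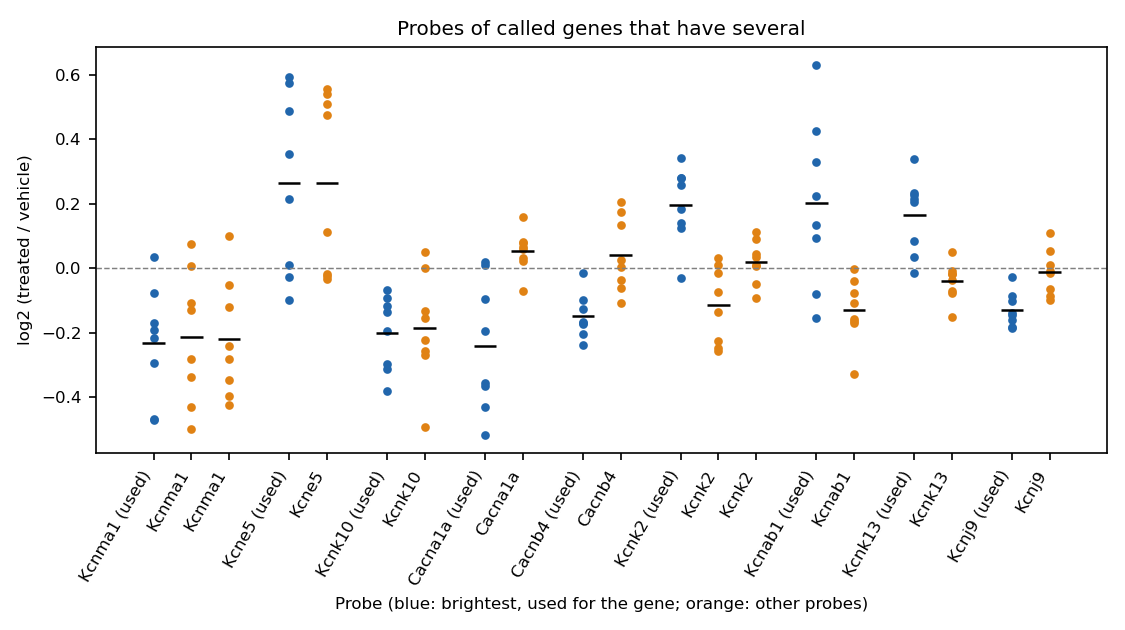
Log2 ratio of treated over vehicle (y axis) on the 8 arrays (points) for each tested probe (x axis) of 9 called genes with several probes, with a bar at the mean of the arrays. Blue probes were the brightest of their gene and were used, and the orange probes of Cacna1a, Kcnk2 and Kcnab1 lie away from them.

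Genes that work with these channels were taken from lists, whose counts stand beside 9.12% of all genes called higher and 10.5% called lower in the mean. Of 15 potassium channel partners tested, 0 rose and 2 fell in the mean, Dlg2 (-0.31 ± 0.053), a synaptic scaffold that binds Kv1 channels, and Akap5 (-0.14 ± 0.032), a kinase anchor at M-channels and calcium channels. Of 11 sodium channel partners and axon initial segment genes, 1 rose, the adhesion protein Nfasc (0.16 ± 0.046), and 2 fell. One of these was Ank3 (-0.27 ± 0.036), the ankyrin that holds sodium channels at the initial segment, which also fell after CAT-SKL, with ratios of -0.46 and -0.27 after CAT-SKL, -0.21 and -0.21 after ADDL, -0.46 and -0.39 after CAT-SKL+ADDL, and -0.14 and 0.0068 after ADDL+CAT-SKL. It was below 0 on 7 of 8 arrays, and ADDL+CAT-SKL 2 was nearest to 0, as for Cacna1a. The other was the kinase Pak1 (-0.20 ± 0.032). Of 22 calcium channel partners 0 rose and 5 fell, among them Cacng2 (-0.12 ± 0.029), Cacng5 (-0.23 ± 0.039) and Cacng8 (-0.18 ± 0.044), which despite their names act mainly on AMPA receptors. The others were Rrad and Rims2, and Rims2 was also called lower after CAT-SKL.

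Of 19 genes for the sodium potassium pump and ion transporters, 7 rose in the mean and 1 fell, beside the same shares of all genes. Their log2 changes lay between -0.19 and 0.77 in the mean. They ran from -0.20 to 0.90 after CAT-SKL and from -0.24 to 0.99 after ADDL. After CAT-SKL+ADDL they ran from -0.21 to 1.09, and after ADDL+CAT-SKL from -0.23 to 0.39. Atp1b1, a beta subunit of the sodium potassium pump, rose by 0.23 ± 0.038, with ratios of 0.061 and 0.29 after CAT-SKL, 0.077 and 0.16 after ADDL, 0.24 and 0.25 after CAT-SKL+ADDL, and 0.41 and 0.37 after ADDL+CAT-SKL, and the bicarbonate transporter Slc4a4 rose by 0.27 ± 0.048. Slc4a4 and several pump subunits are also made by astrocytes, whose markers moved as given above, and their part was not tested. Of 18 other cation and chloride channels, 1 rose (Ano10, 0.20 ± 0.030) and 1 fell (Clcn3, -0.18 ± 0.051).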

How the data were processed

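The deposited scanner files hold a median spot intensity per channel with its local background intensity, flags for background, outlier and saturated spots, and a log10 ratio of red over green made by the authors. The software was Agilent Feature Extraction 11.5, per the submitters' processing notes. The series table deposited by the authors repeats these log10 ratios, within 0.00500, with column medians of 0, and was used as an alternative, converted to log2. Intensities were background-corrected with normexp (offset 50) and normalised by loess in limma 3.58.1 under R 4.3.3. The 902 to 1262 outlier spots per array were then left out, and the remaining spots of a probe were averaged. No spot was saturated (0). Probes were tested if Cy5 or Cy3 was well above background on 2 or more of 8 arrays (25363, of which 67 lacked a value and were left out), each gene by its brightest probe. Of 30367 probes, 17998 had a RefSeq symbol. limma (lmFit and eBayes) was fitted to 7 samples, with 3 residual and 5.05 prior degrees of freedom, and Benjamini-Hochberg adjustment over 22459 genes and accessions. Ratios against vehicle leave out the spread of vehicle cultures. The series' design text calls the 2 arrays of a group biological replicates, but the cultures are not described, so p-values cover only the spread between the arrays, which may be technical. No probe coordinates are given, because none of the arrays' build was used here, and promoters are those of RefSeq's GRCr8 table.

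The channel genes and gene lists were chosen with earlier results of these data known. Members were named where they passed the threshold (up to 6 per comparison and direction, by p), were among the 4 largest changes of a group with the same sign on both arrays, had the smallest p of their class, or belong to a list of main neuronal channels. The fit was tested on simulated data. Results for some genes are not reported here.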

Additional observations from a re-analysis of the deposited data

How the results depend on the processing

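Counts of called channel genes moved with the processing. After CAT-SKL (4 calls) there were 0 with the deposited log ratios, 0 with a normexp offset of 16, 1 without the filter on dim probes (Cacna1a), 2 without background correction (Cacna1a and Hcn4), 2 with the mean over probes (Hcn4 and Kcnh1) and 11 with 8 separate samples. Median centring gave 5, of which Kcne5 and Kcnmb4 were higher, where the loess values had 0 higher. With 8 separate samples, ADDL gave 7, CAT-SKL+ADDL 15 and ADDL+CAT-SKL 7, in place of 0. Median centring gave 1 call after CAT-SKL+ADDL (Kcnmb4) and 1 after ADDL+CAT-SKL (Kcnab1), which an intensity trend in the prior also called (1). The mean of the treatments (23) gave 1 call with the deposited log ratios. A fit of every probe on its own, chosen after seeing the data, gave 3 calls after CAT-SKL and 23 in the mean. Leaving out each array in turn gave 0 to 4 calls after CAT-SKL, 0 to 1 after ADDL (Kcns3, without either CAT-SKL array) and 13 to 23 in the mean. Genes above 0 on all arrays (1) numbered 2 with the deposited ratios, 2 with the mean over probes, 2 without background correction and 4 with median centring, which left 6 below 0. The cause of these shifts was not tested.

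The median channel gene was at -0.065 after CAT-SKL, -0.056 after ADDL and -0.11 after CAT-SKL+ADDL with the deposited ratios, and at -0.038 after ADDL+CAT-SKL with median centring, beside a pooled SD of 0.0178 between the array medians of a group. Leaving out arrays gave -0.043 to -0.014 after CAT-SKL, -0.026 to 0.0017 after ADDL, -0.055 to -0.052 after CAT-SKL+ADDL and -0.018 to 0.0031 after ADDL+CAT-SKL. Of 730 values of named genes under the other settings 63 lost and 20 gained a call, 0 called values changed sign and 16 uncalled values did. Several of these settings leave the log2 changes as they were.

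Replicate numbers were shared between groups, but deviations of same-numbered arrays correlated at -0.20 to 0.078, above 0 for 3 of 6 pairs of groups, so the numbers were not taken as a pairing. With the replicate block, 0 channel genes were called after CAT-SKL and 19 of the 23 in the mean were kept. The share of all genes called with the block is not given here.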
